A study of Mus musculus with 6 samples.

Results

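Neutrophils release proteases that kill bacteria and also digest the collagen and matrix of the cornea, and antiproteases are the proteins that hold those enzymes in check. The 7 antiprotease genes described here were chosen by name for that role, with no threshold on their values. They are Slpi, Wfdc17 and Wfdc21, which encode proteins with a whey acidic protein (WAP) domain, the serpin genes Serpinb1a and Serpinb2, and the metalloproteinase inhibitor genes Timp1 and Timp2. Each matched 1 of the 54838 genes counted, and 7 of 7 passed the filter on low counts. The cells were neutrophils recovered by FACS from the corneas of mice infected for 24 h with the Pseudomonas aeruginosa strain PAO1, and their RNA was sequenced. The 3 Il1a-/- libraries came from mice lacking the gene of the cytokine IL-1 alpha, and the 3 wild-type (WT) libraries from infected mice with that gene. All 6 libraries came from infected corneas, so no level without infection is given here, and the sources used here do not state the mouse strain, the age or how many animals made a library. The labels call the replicates biological but name no animals. The p-values therefore set the difference between genotypes against the spread between these libraries, which edgeR estimates with information shared across genes.

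Serpins work as decoys: a protease cuts an exposed loop and becomes trapped in a covalent complex. WAP-domain inhibitors and TIMPs instead block the active site of the enzyme without being used up. Slpi inhibits neutrophil elastase and cathepsin G and is made by neutrophils and by epithelia, whereas TIMPs act on matrix metalloproteinases. Which inhibitor meets which protease at an infected surface is one determinant of how much tissue is lost.

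The libraries held 22855676 to 32295293 gene counts in Il1a-/- and 25721159 to 33626008 in WT. Il1a itself had 92 to 174 counts in the Il1a-/- libraries and 136694 to 272865 in the WT libraries, as labelled. The neutrophil genes S100a9 and S100a8 stood at 13296 ± 897 and 9665 ± 508 CPM in Il1a-/- and at 14129 ± 1390 and 10316 ± 1076 CPM in WT (SD, n = 3 each). CPM scales a gene's count to the normalised size of its library. The first principal component set Il1a-/- replicate 2 apart from the other 5 libraries, and values without it are given where they turn a direction.

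None of the 7 antiprotease genes differed between the genotypes in edgeR's quasi-likelihood test at an adjusted p of 0.05, where 0.101% of the 11924 tested genes did (0.0755% higher and 0.0252% lower in Il1a-/-). At an unadjusted p of 0.05 the count was also 0 of 7, against 5.99% of the tested genes. DESeq2 and limma-voom likewise called 0 of 7. The genotypes overlapped for 7 of 7 genes, whereas 11.6% of tested genes had groups without overlap (6.12% higher and 5.48% lower in Il1a-/-). Of the fitted differences, 3 were above 0 and 4 below, with a median log2 fold change of -0.05 for the 7 genes and 0.00 for the tested genes. The width of the 95% interval varied widely from gene to gene.

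**Figure D1:**
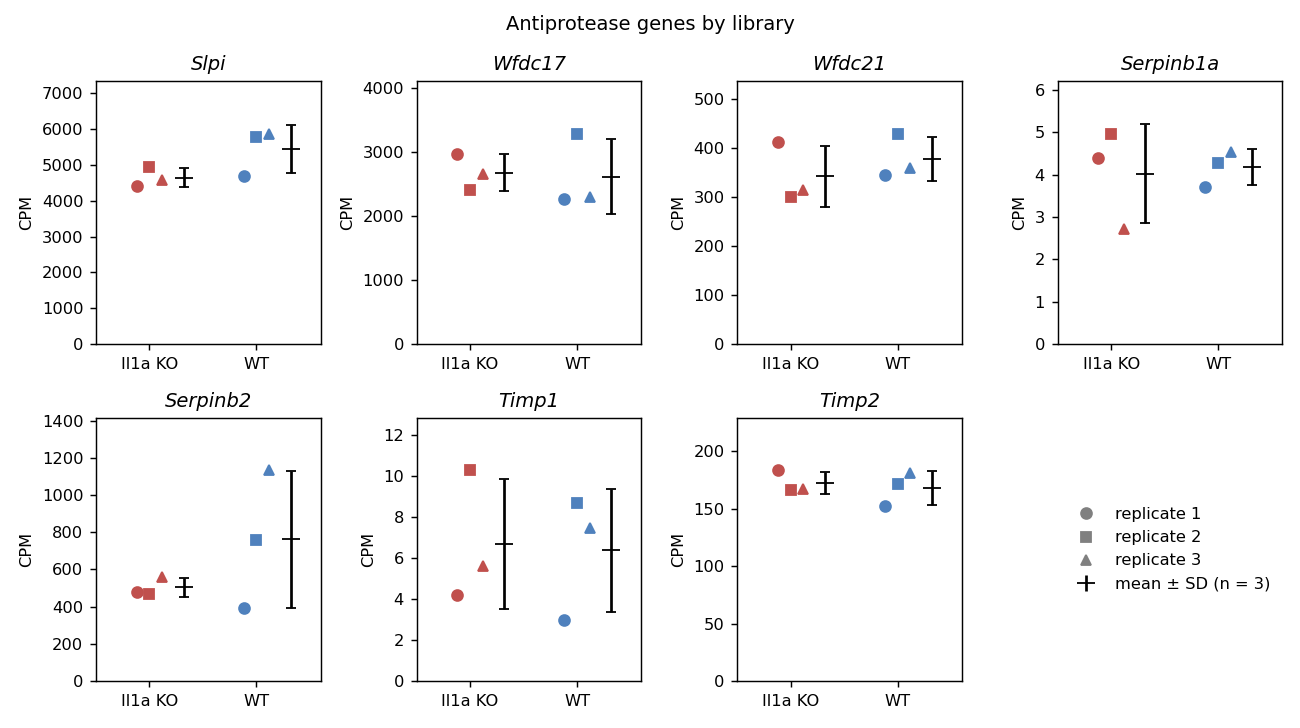
Normalised level (CPM, linear axes from 0) of the 7 antiprotease genes in each library, with the mean and SD of 3 libraries to the right of each group. The Il1a-/- and WT points overlap in every panel, and Serpinb2 and Timp1 show the widest spread.

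To compare genes with one another, counts were divided by exon length and scaled to the same total in each library (TPM). On that scale Wfdc17 averaged 12234 TPM and Slpi 10455 TPM over the 6 libraries, ranks 11 and 14 among the 11924 tested genes. Their ranges overlapped, Wfdc17 was the higher in 5 of 6 libraries, and the order turned round when the longest transcript was used as the length (10127 TPM for Wfdc17 and 11663 TPM for Slpi). The order of these WAP-protein genes is therefore not settled by these values. Wfdc21 followed at 2042 TPM and Serpinb2 at 653 TPM, and then Timp2 at 107.5 TPM. Timp1 stood at 18.0 TPM and Serpinb1a at 4.38 TPM. Every step below Slpi was a gap of 3.13 times or more between means, with ranges over the 6 libraries that did not overlap. Per length, then, the 3 genes of secreted WAP proteins were the highest of the 7, and the intracellular elastase inhibitor Serpinb1a was the lowest.

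**Figure D2:**
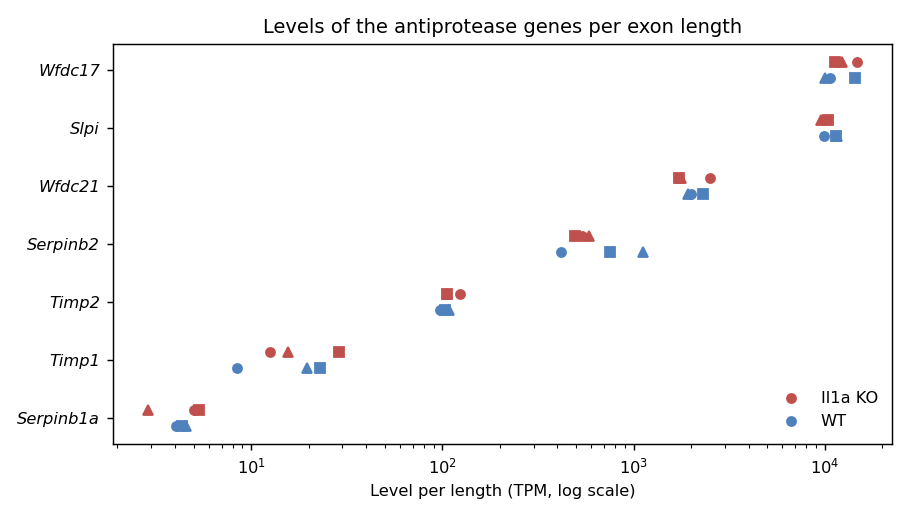
Level per exon length (TPM, log axis) of the 7 antiprotease genes, with 1 point for each library and the Il1a-/- points drawn above the WT points. Wfdc17 and Slpi overlap at the top, with means of 12234 and 10455 TPM, and the other 5 genes are separated from their neighbours.

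Slpi (ENSMUSG00000017002, GRCm38 chromosome 2, 164354070 to 164389095, minus strand) encodes secretory leukocyte protease inhibitor. It had 4408, 4925 and 4576 CPM in the Il1a-/- libraries and 4673, 5773 and 5864 CPM in the WT libraries. WT replicate 1 lay among the Il1a-/- libraries, and the other 2 WT libraries lay above them. The means were 4636 ± 264 CPM in Il1a-/- and 5437 ± 663 CPM in WT (SD, n = 3 each). The log2 fold change was -0.23 (SE 0.12, edgeR adjusted p = 0.87), and its 95% interval ran from a ratio of 0.711 to 1.02. Slpi alone made up 0.505% of all counts. Without WT replicate 1 the log2 fold change was -0.34 (edgeR adjusted p = 0.58). The gene lies 35.0 Mb from Il1a on the same chromosome.

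The 250 bases before the RefSeq start of Slpi (GRCm38.p6, chr2:164356508-164356757, minus strand) are shown because Slpi is the member with the most counts. GENCODE lists 3 transcripts of Slpi, and its gene interval runs upstream past this window to 164389095. Only the window of the RefSeq start was searched. Capitals mark matches, on either strand, to motifs bound by families of factors that neutrophils use.
Slpi: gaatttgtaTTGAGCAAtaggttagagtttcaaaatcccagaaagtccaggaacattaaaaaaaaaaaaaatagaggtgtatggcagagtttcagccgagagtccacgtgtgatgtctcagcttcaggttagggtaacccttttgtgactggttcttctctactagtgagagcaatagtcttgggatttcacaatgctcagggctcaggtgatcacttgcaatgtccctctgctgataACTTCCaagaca
The search covered both strands for the TATA box TATAAA, the AP-1 motif TGANTCA, the C/EBP motif TTGCNNAA, the ETS motif GGAAGT and the NF-kB consensus. Slpi held 1 match to TTGCNNAA on the strand opposite to the gene, which begins 241 bases before the start, and 9.56% of 32851 mouse promoter windows of this length also hold this motif. It held 1 match to GGAAGT, also on the opposite strand, 12 bases before the start, a motif found in 19.7% of the windows. The matches did not overlap, and the other 3 motifs were not in these letters. Promoter sequence was found in the RefSeq table for 5 of the 7 genes, all but Wfdc21 and Serpinb1a.

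A microRNA gene, Mir7678, sits at the end of the last intron of Slpi on the same strand and shares the first base of the last exon. Its 2 mature arms (RefSeq, GRCm38.p6) are shown because reads over this hairpin and reads of Slpi meet here. Capitals mark the seeds, bases 2 to 8.
mmu-miR-7678-5p, chr2:164354363-164354383, minus strand: uUACAAGGgcuggauaggaau
mmu-miR-7678-3p, chr2:164354313-164354334, minus strand: uUUCCUUAcuuucucuuguagc
The arms have different seeds. Mir7678, picked for mention with its values already known, had 66.4, 78.3 and 77.5 CPM in Il1a-/- and 66.2, 81.8 and 93.6 CPM in WT. The genotypes overlapped, and WT replicate 1 was the lowest of the 6 libraries. The kit used copies polyadenylated RNA, so these reads are pieces of longer RNA over the hairpin, and intron reads of Slpi cannot be told apart from them. Reads assigned to both genes are left out of the count used, so the level of Slpi may be understated by those that cross this junction.

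Wfdc17 (ENSMUSG00000069792, chromosome 11, 83703991 to 83706268, plus strand) encodes a small secreted WAP protein known from activated macrophages and microglia of the mouse. Its levels were 2976, 2408 and 2662 CPM in Il1a-/- and 2266, 3289 and 2298 CPM in WT. The Il1a-/- libraries lay inside the WT range, which WT replicate 2 set at the top. Il1a-/- over WT, the fitted log2 value was 0.04 (SE 0.16, edgeR adjusted p = 0.99), with a 95% interval for the ratio from 0.806 to 1.30. Its sign turned negative without Il1a-/- replicate 1, WT replicate 1 or WT replicate 3, so no direction is given.

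Wfdc21 (ENSMUSG00000051748, chromosome 11, 83746940 to 83752642, plus strand) encodes a further WAP protein and starts 40.7 kb beyond the end of Wfdc17. It had 413, 299.8 and 313.5 CPM in Il1a-/- and 346, 429 and 360.0 CPM in WT. The highest library of each genotype, Il1a-/- replicate 1 and WT replicate 2, was the same as for Wfdc17. For Wfdc21 the log2 fold change was -0.15 (SE 0.15, edgeR adjusted p = 0.95), and the 95% interval for the ratio ran from 0.720 to 1.14. Across libraries the ratio of Wfdc17 to Wfdc21 in TPM stayed between 5.20 and 6.91, at 6.44 ± 0.53 in Il1a-/- and 5.59 ± 0.56 in WT (SD, n = 3 each). Wfdc18, whose transcript is 81.5% identical to that of Wfdc17 over 35.5% of the Wfdc17 transcript, had 146 to 263 counts per library.

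Serpinb2 (ENSMUSG00000062345, chromosome 1, 107511423 to 107535478, plus strand) encodes plasminogen activator inhibitor 2, which blocks urokinase and is strongly induced in inflamed myeloid cells. It had 479, 469 and 561 CPM in Il1a-/- and 393, 758 and 1132 CPM in WT. The Il1a-/- libraries lay close together, with a coefficient of variation of 10.1%, and inside the WT range, where it was 48.6%. The lowest and the highest of the 6 libraries were both WT. The means were 503 ± 51 CPM in Il1a-/- and 761 ± 370 CPM in WT (SD, n = 3 each). The log2 fold change of -0.60 was the farthest from 0 of the 7 (SE 0.32, edgeR adjusted p = 0.88). Its 95% interval for the ratio, 0.399 to 1.09, holds both equal levels and less than 0.5 of the WT level. The value turned on single WT libraries: it was -0.93 without WT replicate 1 and -0.20 without WT replicate 3, and the adjusted p was 0.26 and 0.95. Without any expression filter the adjusted p was 0.0050, in a fit that called 185 genes (0.766% of those tested). The spread of Serpinb2 within genotypes, 0.55 on the log2 scale, was greater than that of 99.5% of the 1123 tested genes averaging 100 CPM or more, whose median was 0.15.

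The promoter of Serpinb2 (RefSeq, GRCm38.p6, chr1:107511173-107511422, plus strand, 250 bases before the upstream start) is shown because this gene varied most among the abundant members. Capitals mark matches to the motifs named for Slpi.
Serpinb2: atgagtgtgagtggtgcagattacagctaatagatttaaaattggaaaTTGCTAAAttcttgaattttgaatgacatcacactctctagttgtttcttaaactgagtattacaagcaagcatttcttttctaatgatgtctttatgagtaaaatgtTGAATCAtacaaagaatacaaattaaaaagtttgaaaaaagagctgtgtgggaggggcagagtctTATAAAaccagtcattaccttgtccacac
It held TATAAA beginning 29 bases before the start, as 12.4% of the promoter windows did at any position. TGANTCA, which reads alike on both strands, began at 94 bases (6.75% of windows) and TTGCNNAA at 202 bases. The 3 matches did not overlap, and GGAAGT and the NF-kB consensus were not in these letters. Serpinb2 also has a RefSeq start further downstream, so these distances hold for the upstream start alone. Before the downstream start TATAAA began at 116 bases and TGANTCA at 181 bases. A different match to TTGCNNAA, on the opposite strand, began at 19 bases. A gene model of Serpinb10 on the same strand shares 291 exon bases with Serpinb2, and reads there are left out of both counts. Serpinb10 had 20 to 67 counts per library.

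Serpinb1a (ENSMUSG00000044734, chromosome 13, 32842092 to 32851185, minus strand) encodes an inhibitor of elastase, cathepsin G and proteinase 3 that stays inside the neutrophil. It had only 140, 161 and 62 counts in Il1a-/- and 99, 133 and 141 in WT. In CPM this was 4.40, 4.96 and 2.71 in Il1a-/- and 3.71, 4.28 and 4.53 in WT. Il1a-/- replicate 3 was the lowest library, with a 95% Poisson interval of 47.5 to 79.5 counts (counting error only), and the genotypes overlapped. The log2 fold change was -0.05 (SE 0.29, edgeR adjusted p = 0.99), with a 95% interval for the ratio from 0.615 to 1.52. It was 0.16 without Il1a-/- replicate 3. The near copies Serpinb1b and Serpinb1c, whose transcripts are 92.3% and 92.5% identical to that of Serpinb1a, had 0 counts in every library.

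Timp1 (ENSMUSG00000001131, chromosome X, 20870166 to 20874735, plus strand) encodes an inducible inhibitor of secreted metalloproteinases such as MMP-9. It had 134, 333 and 128 counts in Il1a-/- and 80, 270 and 232 in WT. The levels were 4.21, 10.3 and 5.59 CPM in Il1a-/- and 2.99, 8.69 and 7.46 CPM in WT. High and low libraries occurred in both genotypes, the highest over the lowest was 3.43-fold, and the Poisson intervals of the lowest (63.4 to 99.6 counts) and highest (298 to 371 counts) lay far apart. The log2 fold change was 0.07 (SE 0.42, edgeR adjusted p = 0.99), and the 95% interval for the ratio ran from 0.550 to 2.00. Without Il1a-/- replicate 2 it was -0.40 and without WT replicate 1 -0.28.

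Markers of corneal epithelium were highest in the libraries with the most Timp1. The summed level of 9 such markers, 8 of them past the filter and 0 at zero, was 34.0, 155 and 43.3 CPM in Il1a-/- and 24.8, 185 and 105 CPM in WT. The 3 libraries with the most epithelial marker message were the 3 with the most Timp1, and both were lowest in WT replicate 1. Slpi was highest in these 3 libraries too, at 4925 CPM in Il1a-/- replicate 2 and 5773 and 5864 CPM in WT replicates 2 and 3. WT replicate 1, the lowest for epithelial markers, had 4673 CPM of Slpi, close to Il1a-/- replicate 2. The lowest Slpi level, 4408 CPM, was in Il1a-/- replicate 1. Krt14 led the list, at 34.2 ± 26.2 CPM in Il1a-/- and 41.9 ± 39.5 CPM in WT (SD, n = 3 each). The summed level of 9 keratocyte and fibroblast markers, 7 of them past the filter and 1 at zero, was 12.4, 42.4 and 20.6 CPM in Il1a-/- and 19.9, 21.2 and 36.9 CPM in WT. This stromal sum was highest in the same 3 libraries, but WT replicate 2 (21.2 CPM) barely exceeded Il1a-/- replicate 3 (20.6 CPM). It was lowest in Il1a-/- replicate 1, whereas Timp1 was lowest in WT replicate 1. The part of either group of transcripts in the level of Timp1 or of Slpi was not tested. In bulk RNA fewer cells of a type cannot be told apart from less RNA per cell.

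Timp2 (ENSMUSG00000017466, chromosome 11, 118301069 to 118355740, minus strand) encodes a broadly made inhibitor that also takes part in the activation of MMP-2 by MMP-14. It had 183, 166 and 167 CPM in Il1a-/- and 152, 171 and 181 CPM in WT. It was the steadiest of the 7, with 1.21-fold between the highest and the lowest library. Its log2 fold change was 0.03 (SE 0.12, edgeR adjusted p = 0.99), and the 95% interval for the ratio, 0.856 to 1.22, is among the narrowest here. Its sign turned without Il1a-/- replicate 1 (-0.02) or WT replicate 1 (-0.05).

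**Figure D3:**
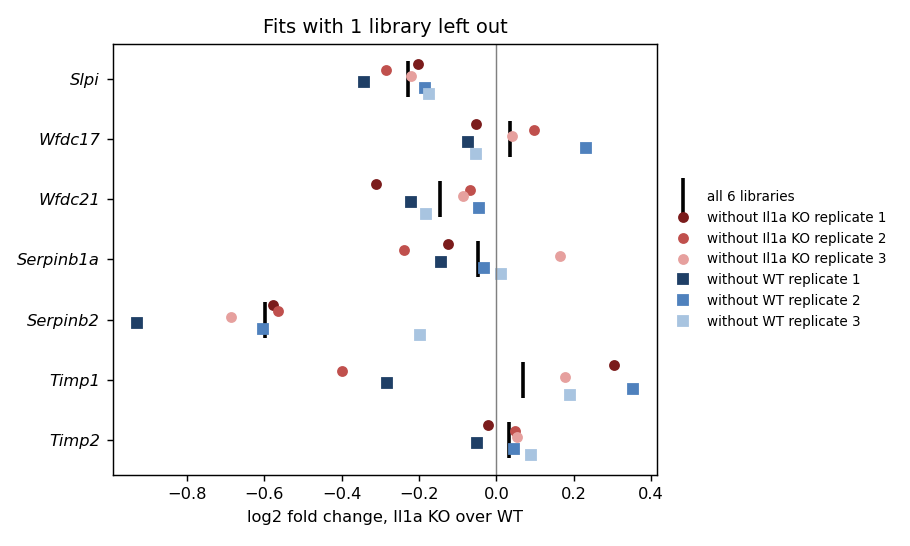
Log2 fold change (Il1a-/- over WT) of the 7 antiprotease genes with all 6 libraries (bar) and with each library left out (points, Il1a-/- libraries drawn above WT libraries). Serpinb2 ranges from -0.93 to -0.20, and Wfdc17, Serpinb1a, Timp1 and Timp2 have values on both sides of 0.

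For each gene, the 2 genes whose log2 CPM followed it most closely over the 6 libraries were found among tested genes averaging 5 CPM or more. Likeness is the root mean square difference after centring on each gene's mean, and close matches among 5662 genes over 6 libraries are given as a description. Serpinb2 was followed by the stefin gene Stfa3 and the granule gene Ngp, both at 0.18 log2 units, where the median over the genes searched was 0.54. Ngp had 42.3, 38.2 and 41.3 CPM in Il1a-/- and 37.3, 48.9 and 86.0 CPM in WT, so WT replicate 3 was high for both genes. Timp1 was followed by Eps8l1 at 0.17 and Sfn at 0.22 (median 0.63), genes known from stratified epithelia. Sfn had 7.01, 19.0 and 11.4 CPM in Il1a-/- and 7.41, 19.6 and 12.2 CPM in WT. Slpi was closest to Cope and Smim3, Wfdc17 to Timm8b and Pttg1, Wfdc21 to Atxn3 and Stx7, Serpinb1a to Tatdn2 and Dr1, and Timp2 to Hif1a and Cd82, at 0.03 to 0.08.

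**Figure D4:**
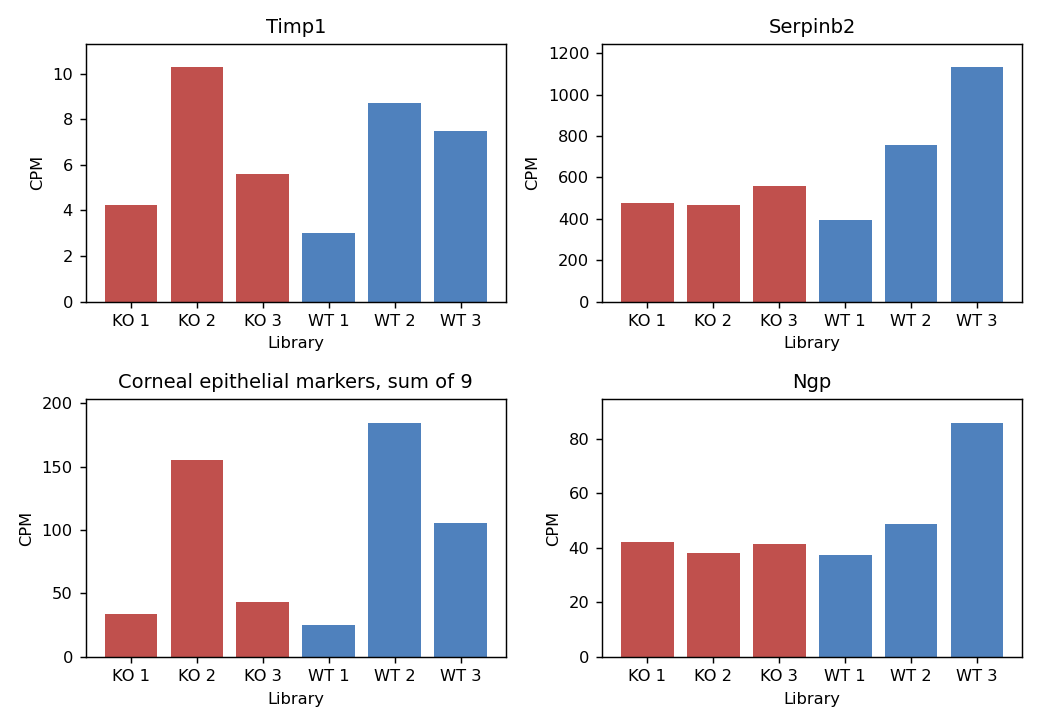
Level in CPM (bars from 0) of Timp1, the sum of 9 corneal epithelial markers, Serpinb2 and Ngp in each library, Il1a-/- in red and WT in blue. Timp1 and the epithelial markers are both high in Il1a-/- replicate 2 and WT replicates 2 and 3, and Serpinb2 and Ngp are both highest in WT replicate 3.

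The further serpin, WAP-protein and metalloprotease inhibitor genes listed for comparison were scarce in these cells and none passed the test. Of 32 further serpin genes 15 were tested and 0 called, and the median log2 fold change was -0.41, against 0.00 over all tested genes. Of the 15, 11 were fitted lower in Il1a-/-, as were 5881 of all 11924 tested genes. An unadjusted edgeR p under 0.05 was found for 3 (5.99% of all tested genes), all with a negative fitted difference. Groups without overlap were found for 2, both lower in Il1a-/- (5.48% of all tested genes). All 4 named here were low. Serpina3n, an inducible secreted serpin, had 0.85, 1.63 and 0.87 CPM in Il1a-/- and 1.57, 1.19 and 14.9 CPM in WT, so its fitted difference of -2.38 (edgeR adjusted p = 0.80) rests on WT replicate 3. Serping1, the C1 inhibitor gene, had 0.63 ± 0.37 CPM in Il1a-/- and 1.73 ± 0.62 CPM in WT, without overlap (log2 fold change -1.45, edgeR adjusted p = 0.75). Serpinb6a had 2.65 ± 0.89 and Serpinh1, a collagen chaperone, 1.73 ± 1.64 CPM in Il1a-/-, against 3.76 ± 0.12 and 3.20 ± 2.34 CPM in WT (SD, n = 3 each). The genotypes did not overlap for Serpinb6a (edgeR adjusted p = 0.93).

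Of 19 further WAP-protein genes 14 had no count in any library and 2 were tested. Wfdc18 stood at 7.66 ± 0.39 CPM in Il1a-/- and 6.33 ± 1.52 CPM in WT, and Wfdc2 at 2.07 ± 2.04 CPM in Il1a-/- and 1.73 ± 1.90 CPM in WT. Of 8 further metalloprotease inhibitors 3 were tested and 0 called. A2m, a broad protease trap, had 7.38 ± 4.70 CPM in Il1a-/- and 8.32 ± 3.80 CPM in WT. Timp3, a matrix-bound relative of Timp1, had 0.47, 0.00 and 0.26 CPM in Il1a-/- and 0.75, 4.93 and 1.32 CPM in WT, without overlap (edgeR adjusted p = 0.60). Reck, a membrane-anchored inhibitor, had 1.48 ± 1.41 CPM in Il1a-/- and 0.55 ± 0.14 CPM in WT.

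The enzymes that these inhibitors oppose were present as message to very different degrees. The granule serine proteases are transcribed in bone marrow precursors, and 0 of 4 such genes passed the filter. Elane, the elastase gene and a target of Slpi and Serpinb1a, had 0 counts in 5 libraries, which allows up to 3 counts in each, and 89 counts in WT replicate 3. Prtn3 had 9, 0 and 0 counts in Il1a-/- and 18, 7 and 4 counts in WT, and Ctsg had 0 in each Il1a-/- library and 1, 5 and 0 in WT. The stored granule enzymes themselves were not measured here.

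Of 25 metalloprotease genes, which include the targets of the TIMPs, 17 were tested and 0 called, with a median log2 fold change of 0.05. An unadjusted edgeR p under 0.05 was found for 5 of 17, against 5.99% of all tested genes, and their fitted differences were of both signs. Groups without overlap were found for 1 gene higher and 1 gene lower in Il1a-/- (6.12% and 5.48% of all tested genes). Adam8, a membrane sheddase, had 1822 ± 119 CPM in Il1a-/- and 1876 ± 46 CPM in WT. Mmp9, gelatinase B, had 1035 ± 332 CPM in Il1a-/- and 1130 ± 292 CPM in WT, and Mmp8, neutrophil collagenase, 139 ± 81 CPM in Il1a-/- and 180 ± 2 CPM in WT (SD, n = 3 each). Adam19 had 49.2 ± 1.1 CPM in Il1a-/- and 64.7 ± 13.5 CPM in WT (edgeR adjusted p = 0.79). On the length scale Mmp9 averaged 757 TPM, against 107.5 TPM for Timp2 and 18.0 TPM for Timp1.

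Mmp14, the membrane metalloprotease that works with Timp2, had 15.4, 39.8 and 27.1 CPM in Il1a-/- and 10.5, 12.9 and 12.4 CPM in WT. The genotypes did not overlap, and the log2 fold change was 1.20 (SE 0.29), but it did not pass over all genes (edgeR adjusted p = 0.36). The summed level of 18 markers of monocytes and macrophages, cells that also express Mmp14, was higher in each Il1a-/- library. With 16 of them tested and 0 at zero, it was 713 to 743 CPM in Il1a-/- and 595 to 642 CPM in WT. The most abundant of these markers were Cd68, at 348 CPM in Il1a-/- and 308 CPM in WT, and Csf1r, at 206 and 178 CPM. Neither passed the test (edgeR adjusted p = 0.93 and 0.90). Single markers could overlap between the genotypes, as Adgre1 did. The sum of keratocyte and fibroblast markers given above overlapped between the genotypes and was highest in Il1a-/- replicate 2, as was Mmp14. The part of either group of cells in the values of Mmp14 was not tested.

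In the plasminogen system, where Serpinb2 acts, 6 of 7 genes were tested and 0 called. Plaur, the urokinase receptor gene, had 3916 ± 414 CPM in Il1a-/- and 4289 ± 415 CPM in WT. Anxa2 had 492 ± 73 CPM in Il1a-/- and 540.1 ± 54.8 CPM in WT. Plgrkt, a plasminogen receptor gene, had 173 ± 23 CPM in Il1a-/- and 169 ± 20 CPM in WT, and S100a10 5.69 ± 3.13 CPM in Il1a-/- and 3.47 ± 1.14 CPM in WT (SD, n = 3 each). Plau, the urokinase gene itself, was named after its values were seen and had 3.63 ± 1.1 CPM in Il1a-/- and 2.91 ± 0.84 CPM in WT. 

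**Figure D5:**
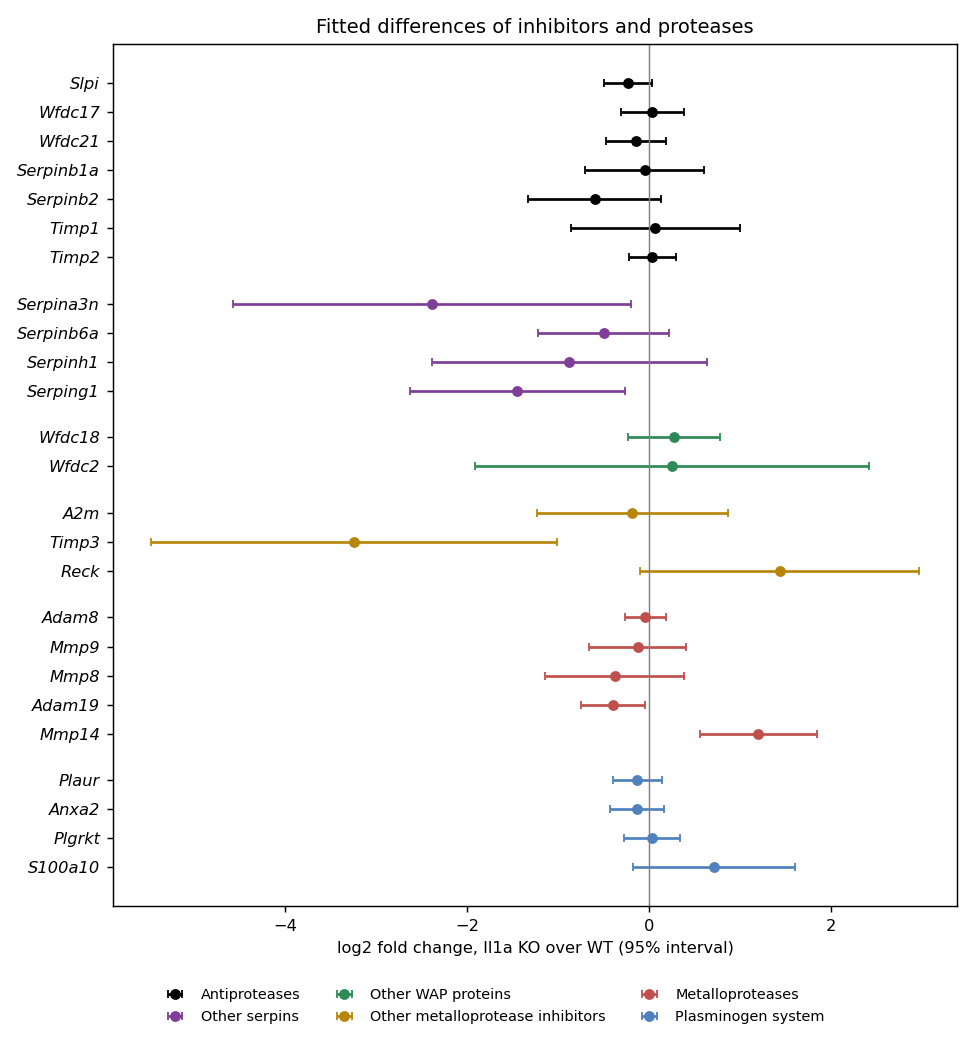
Log2 fold change (Il1a-/- over WT) with its 95% interval for the 7 antiprotease genes and the genes named from the lists of related inhibitors and proteases. None passed the adjusted threshold. Slpi, Wfdc17, Wfdc21 and Timp2 have narrow intervals that include 0, the interval of Mmp14 lies above 0, and those of Serpina3n, Serping1, Timp3 and Adam19 lie below 0.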

How the data were processed

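Expression was measured by RNA sequencing in 3 Il1a-/- and 3 WT libraries of sorted corneal neutrophils. The labels' protocols name an ultra low input SMART-seq v4 kit, whose reads carry no strand. Builds GRCm38 and mm10 appear in the submitters' processing notes, beside STAR 2.7.8a, Trimmomatic 0.39 and FastQC 0.11.9. Which annotation release was used is not given in the sources used here. Per gene, the authors deposited raw whole-number counts, 1 unstranded column and 2 by strand. The unstranded column was used.

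Genes were matched to GENCODE M21 (54809 of 54838). Counts passing edgeR's filter by group (11924 genes) were scaled with TMM factors, and edgeR 4.0.16 in R 4.3.3 ran the robust quasi-likelihood test, Il1a-/- against WT without a replicate term, adjusted by Benjamini-Hochberg over all tested genes. Log2 CPM used a prior count of 3. Intervals of 95% come from the fitted standard error. Exact two-sided permutation of 3 against 3 libraries cannot go below p = 0.1, so no such test is given. The procedure was also run on simulated counts whose spread was set by abundance alone. Genes with a wider spread, such as Serpinb2, were therefore not represented, and no result here rests on that run. TPM used merged exon lengths. Similar transcripts were searched with blastn 2.17.0. Of 95 list genes and 85 markers, 95 and 84 matched.

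Same-numbered libraries deviated together with correlations of 0.14, 0.06 and 0.00 across genes, so the numbers were not taken as pairs. The 7 genes, the lists, the tests and the rule for naming genes were chosen with earlier results of these data known. The rule named the 7 genes, Il1a, the 3 most abundant and the 2 genes of lowest p per list, called genes, the 3 most abundant markers per cell type and 2 most-like genes per member. Motifs were chosen afterwards. Alternatives were other scalings (DESeq2 size factors, upper quartile, library size), other filters, the strand columns, a replicate block, each library left out, limma-voom 3.58.1 and DESeq2 1.42.0. Figures were drawn with matplotlib 3.10.9.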

Additional observations from a re-analysis of the deposited data

How the results depend on the processing

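The 7 antiprotease genes stayed uncalled in each of 15 alternatives, except Serpinb2 without an expression filter (log2 fold change -0.61, adjusted p = 0.0050; 1 of 7 genes called). Its unadjusted edgeR p was 1.9e-05 without the filter and 0.095 in the main fit, where the log2 fold change was -0.60. The cause of this shift was not tested. Across all genes the count of calls was 12, and it was 185 without a filter, 21 with at least 5 CPM in 3 libraries (which left out Serpinb1a), 20 with the replicate block, 70 by DESeq2 and 7 to 24 with 1 library left out. The block called 0 of 7 antiprotease genes, and same-numbered libraries did not pair. Slpi, Wfdc21 and Serpinb2 kept their sign in each alternative, from -0.34 to -0.17, -0.31 to -0.05 and -0.93 to -0.20. With 1 library left out, Wfdc17 ranged from -0.0725 to 0.23, Serpinb1a from -0.24 to 0.16, Timp1 from -0.40 to 0.35 and Timp2 from -0.0494 to 0.0892, and Serpinb1a was at 0.0156 when scaled by library size alone. With the longest transcript as length, the levels were 11663 TPM for Slpi, 10127 for Wfdc17, 1690 for Wfdc21 and 93.5 for Timp2. With the strand columns they were 9334 TPM for Slpi and 96.0 for Timp2. Serpinb1a and Timp1 had 62 to 333 counts per library, and the spread of Timp1 between libraries exceeded its counting error.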

Other observations

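Summed over the 7 antiprotease genes, the level was 8468, 8283 and 8287 CPM in Il1a-/- and 7836, 10434 and 9848 CPM in WT. The Il1a-/- libraries lay close together and inside the WT range. The 3 WAP-protein genes held most of it, at 7660 ± 125 CPM in Il1a-/- and 8432 ± 1106 CPM in WT (SD, n = 3 each).

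Markers of other cell types were also measured. Dcn, a stromal keratocyte gene, had 8.64 ± 3.71 CPM in Il1a-/- and 11.7 ± 4.7 CPM in WT. Pecam1, which leads the endothelial list and is also made by leukocytes, had 37.2 ± 8.2 CPM in Il1a-/- and 39.8 ± 3.0 CPM in WT. Ppbp, a platelet chemokine gene, averaged 17.4 CPM in Il1a-/- and 14.03 CPM in WT, with SDs above the means. Kit had 6.57 ± 2.43 CPM in Il1a-/- and 9.53 ± 0.97 CPM in WT, and Cd3d 0.63 ± 0.13 CPM in Il1a-/- and 1.22 ± 0.17 CPM in WT. Ccr7, of the dendritic cell list, had 5.18 ± 3.15 CPM in Il1a-/- and 1.06 ± 0.54 CPM in WT (edgeR adjusted p = 0.46). Cd68, which leads the monocyte and macrophage list, had 348 ± 25 CPM in Il1a-/- and 308 ± 27 CPM in WT (SD, n = 3 each). No B cell marker passed the filter.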
